A study of Oryza sativa with 6 samples.

Results

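The genes described here are the rice genes whose ratio between drought-stressed and well-watered leaves lay far from 0 in the genotype Apo while averaging near 0 in the genotype IR64. Members were chosen by the deposited ratios themselves: a probe annotated with 1 gene entered where its log ratio was above 0.3 on all 3 Apo arrays, or below -0.3 on all 3, and where the mean of its 3 IR64 ratios lay within 0.1 of 0. Of 17839 such probes, 92 met the rule on the positive side (0.516%) and 115 on the negative side (0.645%), each for a different gene, so 207 genes in all. The ratios that define the members are given as descriptions, and no test of Apo, of IR64 or of their difference supports the choice.

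The samples were drought-stressed and well-watered leaves of greenhouse plants of Apo, called drought tolerant by the submitters, and of IR64, called susceptible. Stress began at 33 days after sowing, lasted 5 days by the sample labels or 6 days by the series text, and control leaves were taken at 37 days. Each genotype had 3 Agilent 2-colour arrays, with stressed RNA in Cy3 and control RNA in Cy5 on every one of them and no dye swap. Whether replicates came from separate plants is not stated, so any p-value measures the spread between these arrays, which may be technical, and in bulk leaf RNA fewer cells of a type cannot be told apart from less RNA per cell.

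Drought is sensed in rice leaves largely through abscisic acid, a hormone that closes stomata and switches on protective genes through kinases, phosphatases and transcription factors of the bZIP, NAC and WRKY families. As stress goes on, growth and cell division slow, chlorophyll is no longer renewed and is later broken down, and nutrients are moved out of ageing leaves. Genotypes can differ in when and how strongly each of these programmes starts.

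Values are deposited log ratios, taken as log10 because the software named by the submitters writes that base, so that a value of 0.435 is a ratio of 2.73. The sign is not settled. The software's usual ratio is Cy5 over Cy3, which here would put well-watered over stressed leaves, yet RAB16C, a dehydrin gene known to respond to water loss, stood at 1.72 ± 0.107 in Apo and 1.43 ± 0.210 in IR64 (SD, n = 3 arrays each). Ratios are therefore called positive or negative, not higher or lower in drought. The table holds ratios and no channel levels, so the labelled leaf tissue could not be checked against markers and distance from background is unknown.

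One array stood apart and touches every result below. Across all 17839 probes the array labelled IR64 replicate 1 correlated with the 3 Apo arrays at 0.831 to 0.894 and with the other IR64 arrays at 0.755 to 0.767, while IR64 replicates 2 and 3 correlated with each other at 0.938 and with the Apo arrays at 0.624 to 0.734. The probes are not independent and all share their arrays, so these correlations only describe the libraries. Whether the label of this array is right was not tested, and that doubt bears on every IR64 mean and so on each gene's place in the set. The member counts, the named members kept and the calls for the difference are also given without this array. Most other results, among them the name lists, the overlap counts and the mirror rule, use all 6 arrays only.

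Apo ratios beyond 0.3 on all arrays were common: 1489 probes were positive (8.35%) and 1773 negative (9.94%). The members were a small share of these, 6.18% on the positive and 6.49% on the negative side. Among the rest, the IR64 mean was on the same side as Apo for 1382 of 1397 positive and 1635 of 1658 negative probes, and on the opposite side for 15 and 23. Most large Apo ratios thus had a counterpart of the same sign in the IR64 mean.

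The positive members had median ratios of 0.450, 0.43 and 0.400 on Apo replicates 1, 2 and 3, against 0.229, -0.0445 and -0.0592 on IR64 replicates 1, 2 and 3. The negative members had medians of -0.502, -0.411 and -0.385 on the Apo arrays, against -0.199, 0.0260 and 0.0609 on the IR64 arrays. On both sides IR64 replicate 1 lay between the Apo arrays and the other IR64 arrays, which were slightly past 0 in the opposite direction. Apo replicate 1 was the array furthest from 0 for 86 of 115 negative members and 41 of 92 positive ones.

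**Figure D1:**
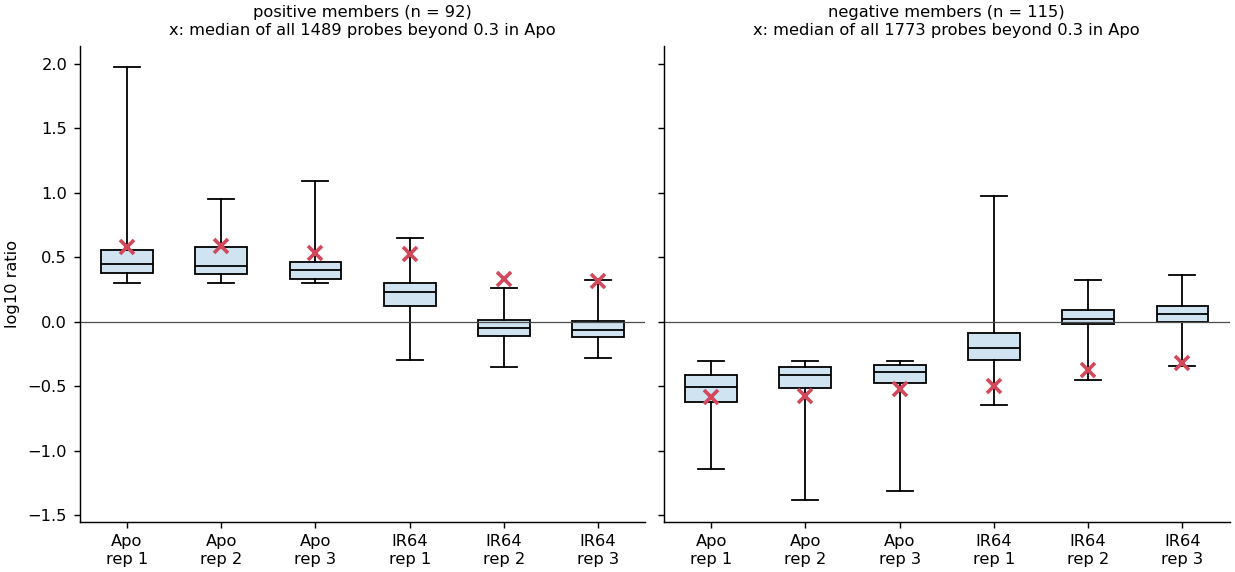
Log10 ratios of the 92 positive members (left) and the 115 negative members (right) on each array. Boxes span the quartiles with the median as a line, whiskers reach the lowest and highest member, and crosses mark the median of all 1489 positive or 1773 negative probes beyond 0.3 on every Apo array. The members' boxes reach or touch 0 on IR64 replicates 2 and 3 but not on IR64 replicate 1.

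The spread between IR64 arrays at the members was wide. Its median SD was 0.159 for positive and 0.152 for negative members, against 0.0788 over all probes. Over all probes beyond 0.3 on every Apo array it was 0.133 on the positive and 0.114 on the negative side. Much of the wide spread was thus shared by genes with large Apo ratios. The median Apo SD was 0.0578 and 0.0753 for the members, against 0.0565 over all probes. IR64 replicate 1 was on the Apo side of 0 for 82 of 92 positive and 101 of 115 negative members, and beyond 0.3 on that side for 24 and 27. For 49 positive and 61 negative members it was on the Apo side while both other IR64 arrays were on the opposite side.

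IR64 replicate 1 was the IR64 array furthest towards Apo for 79 positive members (85.9%) and 95 negative members (82.6%). Over all probes it was the highest IR64 array for 41.8% and the lowest for 41.3%. Among non-members beyond 0.3 in Apo the share was 75.2% on the positive and 71.2% on the negative side, so this order of the IR64 arrays was common to genes with large Apo ratios and not a property of the members. A mean near 0 therefore seldom stood for 3 ratios near 0: all 3 IR64 ratios lay within 0.1 of 0 for 5 positive and 16 negative members, against 17.5% of all probes, and within 0.3 for 67 and 86.

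**Figure D2:**
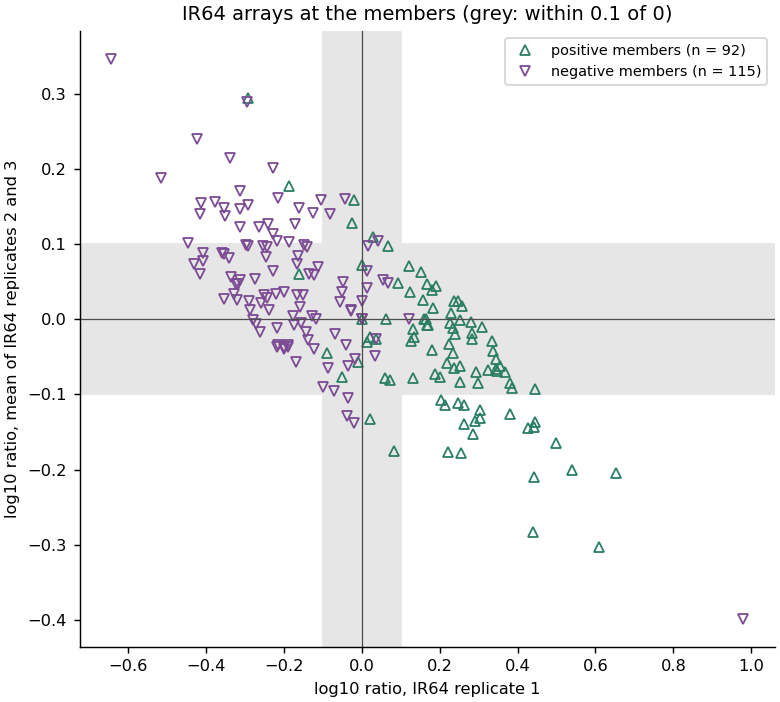
IR64 replicate 1 (horizontal, log10 ratio) against the mean of IR64 replicates 2 and 3 (vertical) for the 92 positive and 115 negative members, with values within 0.1 of 0 in grey. The slope from upper left to lower right follows from the rule, which bounds the mean of the 3 arrays. Most positive members lie to the right of the grey column and most negative members to the left of it.

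Without IR64 replicate 1 the rule found 195 positive and 219 negative probes. They included 64 of the 92 positive members, which is 69.6% of the members and 32.8% of the new set, and 82 of the 115 negative members, 71.3% and 37.4%. Of the members with a gene name, 8 of 16 positive and 19 of 25 negative ones stayed. The named members that left had IR64 replicates 2 and 3 averaging beyond 0.1 on the side opposite to Apo, except LAC19, which is described below.

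The named positive members began with transcription factors. WRKY71, a WRKY factor linked in rice to gibberellin and defence signalling, stood at 0.509, 0.598 and 0.592 on the Apo arrays, against 0.444, -0.0958 and -0.0900 on the IR64 arrays. HSFA3, a heat shock factor of class A, stood at 0.622, 0.574 and 0.473 in Apo, against 0.499, -0.181 and -0.148 in IR64. BHLH148, a helix-loop-helix factor tied in rice to jasmonate signalling and drought tolerance, stood at 0.360, 0.379 and 0.394 in Apo, against 0.443, -0.206 and -0.215 in IR64. In all of these the IR64 replicate 1 value was near, inside or above the Apo range and the other IR64 arrays were negative.

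NAC factors gave 3 members. NAC proteins are plant-specific regulators, and SNAC2 and NAC5 raise stress tolerance when overproduced in rice. SNAC2 had ratios of 0.560, 0.434 and 0.408 in Apo (0.467 ± 0.0809, SD, n = 3), against 0.445, -0.164 and -0.109 in IR64 (0.0576 ± 0.337). NAC5 had 0.333, 0.344 and 0.346 in Apo (0.341 ± 0.00678), against 0.247, -0.0862 and -0.136 in IR64 (0.00834 ± 0.208). NTL3, a membrane-tethered NAC factor also listed as NAC8, had 0.356, 0.353 and 0.352 in Apo (0.354 ± 0.00171), against 0.303, -0.129 and -0.133 in IR64 (0.0137 ± 0.251). The Apo arrays of NAC5 and NTL3 lay within a narrow range while the IR64 arrays split, with replicate 1 on the Apo side each time. All of these NAC probes and HSFA3 and BHLH148 left the set without IR64 replicate 1, where their IR64 means lay between -0.111 and -0.210.

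One member each came from the breakdown of abscisic acid and from the phosphatase family linked to its signalling. ABA8OX1, an abscisic acid 8'-hydroxylase that breaks the hormone down, stood at 0.477, 0.327 and 0.330 in Apo, against 0.132, -0.0957 and -0.0615 in IR64. OsPP2C45, a protein phosphatase of the PP2C family, some of whose members restrain abscisic acid signalling, stood at 0.402, 0.361 and 0.345 in Apo, against -0.0505, -0.0106 and -0.145 in IR64. It was the only named positive member with all 3 IR64 ratios on the opposite side. Both stayed in the set without IR64 replicate 1.

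SGR, the stay-green protein that removes magnesium from chlorophyll as leaves age, had ratios of 0.383, 0.412 and 0.409 in Apo, against 0.0839, -0.150 and -0.200 in IR64. The groups did not overlap. NYC1, a reductase that starts the breakdown of chlorophyll b, lay just outside the IR64 limit with a mean of 0.330 ± 0.0438 in Apo, against -0.104 ± 0.161 in IR64. These chlorophyll breakdown genes had like values in each genotype, although 1 counts as a member and the other does not.

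Potassium transport supplied a pair of positive members. HAK12, a potassium transporter of the HAK family, stood at 0.409, 0.464 and 0.349 in Apo, against 0.135, -0.0312 and -0.0160 in IR64. TPKB, a vacuolar 2-pore potassium channel, stood at 0.634, 0.375 and 0.455 in Apo and was listed at exactly 0 on all 3 IR64 arrays. An exact 0 on all IR64 arrays occurred for 1.41% of all probes, and it may stand for a ratio that was not estimated, so this gene cannot be read as measured near 0 in IR64.

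The remaining named positive members were JMJ706, a histone demethylase of the jumonji family, RAD23, a shuttle of ubiquitin-tagged proteins, GT43G, a glycosyltransferase of the family that builds xylan, LAC19, a laccase, and bip128. JMJ706 stood at 0.344, 0.390 and 0.331 in Apo, against 0.442, -0.149 and -0.137 in IR64, so its highest ratio was on an IR64 array. GT43G stood at 0.404, 0.453 and 0.427 in Apo, against 0.380, -0.100 and -0.0702 in IR64. LAC19 ran the other way within IR64, at 0.430, 0.414 and 0.326 in Apo, against -0.292, 0.262 and 0.326 in IR64. Its IR64 mean of 0.0985 came from replicate 1 alone lying opposite to Apo, and without that array the difference between genotypes was 0.0963. The means of bip128 and RAD23 were 0.387 ± 0.0688 and 0.358 ± 0.0722 in Apo, against 0.0631 ± 0.227 and 0.0499 ± 0.107 in IR64.

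**Figure D3:**
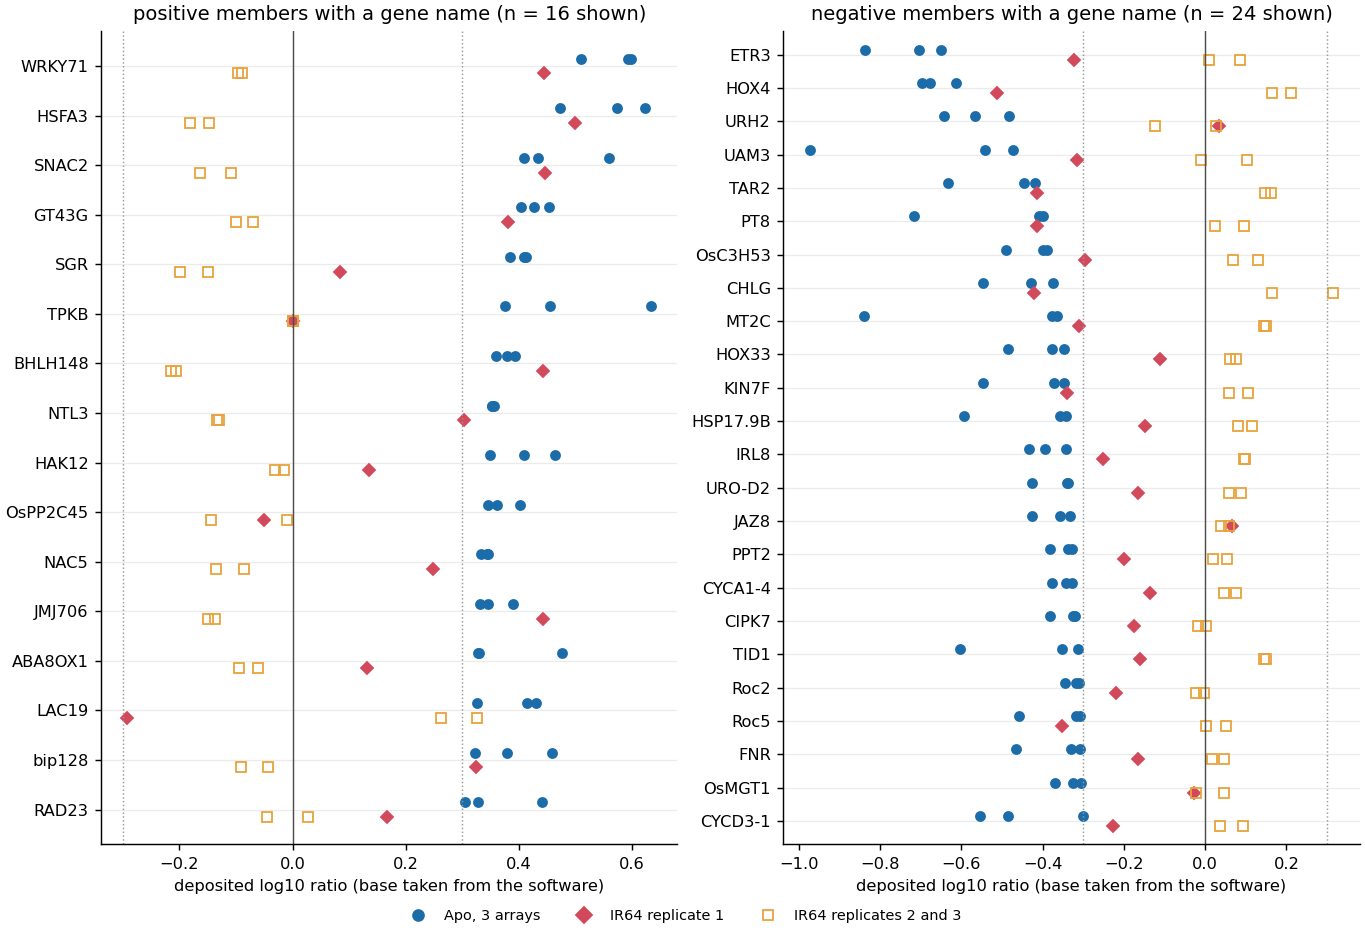
Log10 ratios of the 16 positive (left) and 24 of the 25 negative (right) members with a gene name, 1 row per gene, in order of the Apo ratio nearest 0. Circles are the 3 Apo arrays, diamonds IR64 replicate 1 and open squares IR64 replicates 2 and 3; dotted lines mark -0.3 and 0.3. For WRKY71, HSFA3, SNAC2, HOX4 and PT8 the diamond lies near the circles, and for TPKB, JAZ8, URH2 and OsMGT1 it lies with the squares.

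On the negative side, hormone genes came first. ETR3, a receptor of the gas hormone ethylene, had the largest mean ratio among named members, at -0.837, -0.651 and -0.705 in Apo, against -0.323, 0.0848 and 0.00859 in IR64. JAZ8, a repressor of jasmonate responses, stood at -0.427, -0.358 and -0.333 in Apo, against 0.0665, 0.0391 and 0.0581 in IR64. TAR2, also called FIB, an aminotransferase of auxin synthesis that shapes rice leaves, stood at -0.633, -0.447 and -0.418 in Apo, against -0.413, 0.147 and 0.162 in IR64. The IR64 ratios of JAZ8 stayed close together, with an SD of 0.0141, whereas TAR2 had an IR64 SD of 0.328 and left the set without IR64 replicate 1.

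Homeodomain factors, which pattern leaves and other organs, gave 4 negative members. HOX4, of the leucine zipper class, stood at -0.613, -0.696 and -0.677 in Apo, against -0.513, 0.164 and 0.210 in IR64. HOX33 stood at -0.486, -0.378 and -0.347 in Apo, against -0.111, 0.0763 and 0.0621 in IR64. Roc2 and Roc5, of the epidermal GL2 class (Roc5 limits the bulliform cells that roll the rice leaf), had means of -0.324 ± 0.0187 and -0.362 ± 0.0840 in Apo, against -0.0810 ± 0.119 and -0.0996 ± 0.220 in IR64. HOX33 and Roc2 had no overlap between the genotypes, while Roc5 had an IR64 replicate 1 ratio of -0.352 inside its Apo range.

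Plastid and chlorophyll genes formed the next group. CHLG, the chlorophyll synthase that attaches the phytol tail, stood at -0.547, -0.429 and -0.374 in Apo, against -0.421, 0.164 and 0.316 in IR64, and its IR64 SD of 0.389 was wide. URO-D2, a uroporphyrinogen decarboxylase on the path to heme and chlorophyll, stood at -0.425, -0.340 and -0.337 in Apo, against -0.165, 0.0576 and 0.0884 in IR64. FNR, a ferredoxin-NADP reductase, had means of -0.367 ± 0.0851 in Apo and -0.0339 ± 0.115 in IR64, and PPT2, a phosphoenolpyruvate carrier of the plastid envelope, -0.349 ± 0.0291 in Apo and -0.0424 ± 0.137 in IR64. In URO-D2, FNR and PPT2 every Apo ratio was more negative than every IR64 ratio, while CHLG overlapped through IR64 replicate 1.

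Further named negative members act in cell division, the cytoskeleton or the cell wall. The cyclin CYCA1-4 stood at -0.377, -0.342 and -0.326 in Apo, against -0.135, 0.0459 and 0.0748 in IR64, and the D-type cyclin CYCD3-1 at -0.486, -0.554 and -0.301 in Apo, against -0.226, 0.0355 and 0.0930 in IR64. TID1, an alpha-tubulin, averaged -0.422 ± 0.158 in Apo and 0.0448 ± 0.179 in IR64, and KIN7F, a kinesin motor, averaged -0.421 ± 0.109 in Apo and -0.0595 ± 0.245 in IR64. UAM3, a mutase that supplies arabinose for the wall, stood at -0.973, -0.541 and -0.474 in Apo, against -0.316, -0.0113 and 0.104 in IR64. Apo replicate 1 was the most negative array for CYCA1-4, TID1, KIN7F and UAM3.

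Other named negative members act in nutrient transport and nucleoside recycling. PT8, a phosphate transporter, stood at -0.716, -0.398 and -0.410 in Apo, against -0.415, 0.0232 and 0.0968 in IR64. OsMGT1, a magnesium transporter, was among the steadiest, at -0.369, -0.324 and -0.305 in Apo, against -0.0266, -0.0213 and 0.0459 in IR64. URH2, a ribohydrolase of nucleoside recycling, stood at -0.566, -0.483 and -0.642 in Apo, against 0.0344, -0.123 and 0.0259 in IR64. For OsMGT1 and URH2 the IR64 arrays lay together and apart from Apo, while PT8 overlapped through IR64 replicate 1.

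The metallothionein MT2C averaged -0.527 ± 0.271 in Apo and -0.00557 ± 0.264 in IR64, and the small heat shock protein HSP17.9B averaged -0.431 ± 0.141 in Apo and 0.0166 ± 0.143 in IR64. The CCCH zinc finger protein OsC3H53 had -0.427 ± 0.0560 in Apo and -0.0327 ± 0.230 in IR64, the leucine-rich repeat protein IRL8 -0.390 ± 0.0459 in Apo and -0.0195 ± 0.202 in IR64. The gene listed as CIPK7, also under the unrelated name THA4, had -0.342 ± 0.0335 in Apo and -0.0636 ± 0.0965 in IR64.

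The largest ratios belonged to genes without a name in the gene table. LOC4346179 stood at 1.97, 0.882 and 1.09 in Apo, against 0.166, 0 and 0 in IR64, and LOC4331338 at 0.878, 0.951 and 0.801 in Apo, against 0.0666, 0 and 0.195 in IR64. On the negative side LOC4337529 stood at -1.14, -1.38 and -1.31 in Apo, against 0.0148, 0.165 and -0.0830 in IR64, and LOC4344755 at -1.06, -1.20 and -1.09 in Apo, against -0.0191, -0.143 and -0.133 in IR64. An exact 0 occurred on at least 1 IR64 array for 6 positive and 7 negative members. Over all members the Apo means ran from 0.310 to 1.32 on the positive side and from -1.28 to -0.310 on the negative side, with medians of 0.435 and -0.431.

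The members with every IR64 ratio within 0.1 of 0 were TPKB and 4 unnamed positive genes, and JAZ8, OsMGT1 and 14 unnamed negative genes. Of these 21, 4 were at exactly 0 on all IR64 arrays, among them TPKB. The other 17 had small measured IR64 ratios on at least 1 array, as in JAZ8 and OsMGT1 above.

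The rule used the contrast between genotypes, so the fit of the difference describes the members without supporting them. In limma's fit of Apo minus IR64 to all 17727 annotated probes, 0.773% were called positive and 1.25% negative at an adjusted p below 0.05. Among the members, 28 of 92 positive and 36 of 115 negative ones were called. Blocking on the replicate number, 1.75% of probes were called positive and 3.61% negative, and 33 positive and 63 negative members. Without IR64 replicate 1 the shares were 13.9% and 19.7%, and 88 positive and 113 negative members were called. Leaving out any other array left at most 6 members called, all negative.

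All 3 Apo ratios lay above all 3 IR64 ratios for 83 of 92 positive members, against 15.2% of all probes, and below them for 105 of 115 negative members, against 19.0%. The rule nearly fixes this order, and it is given as a description. The 9 positive and 10 negative members whose arrays overlapped included HSFA3, SNAC2, BHLH148, JMJ706, bip128, CHLG, PT8 and Roc5. The 95% limma interval of the IR64 mean reached past 0.3 on the Apo side for 12 positive and 14 negative members. Their IR64 ratio was thus not bounded below the Apo limit. The fit takes 1 spread per probe for both genotypes, so the intervals do not rest on the wider IR64 spread alone. The other members are therefore not shown to be bounded below the limit. IR64 replicate 1 itself lay beyond 0.3 on that side for 24 positive and 27 negative members.

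Lists of genes by name prefix set some of the members beside other genes of like name. They miss members whose names do not start with a listed prefix, such as Roc2, Roc5, FNR, URO-D2, UAM3, GT43G, LAC19 and TAR2, so they do not count whole families. Over all probes in Apo 24.5% were called positive and 25.6% negative by limma, and in IR64 22.7% and 20.2%. Of 12 probes for NAC factors, 8 were positive and 1 negative in Apo and 4 and 1 in IR64. Their median ratio was 0.326 in Apo and 0.0357 in IR64, against -0.00320 and 0 over all probes. SNAC2, NAC5 and NTL3 were the 3 members among these 12 probes. The rule chose these 3 for such values, so they feed the calls and medians of the list, which was not summarised without them.

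Of 22 probes for photosynthesis and chlorophyll, 3 were positive and 15 negative in Apo and 1 and 10 in IR64, with medians of -0.327 in Apo and -0.122 in IR64. In this list CHLG was the only negative and SGR the only positive member. CHLH, another chlorophyll synthesis gene and no member, stood at -0.607 ± 0.0204 in Apo and -0.397 ± 0.142 in IR64. Of 39 probes for heat shock factors and chaperones, 22 were positive and 5 negative in Apo and 12 and 5 in IR64, with HSFA3 and HSP17.9B as members on opposite sides. Of 34 homeodomain probes, 13 were positive and 6 negative in Apo and 11 and 5 in IR64, with HOX4 and HOX33 as members by this prefix, which leaves out Roc2 and Roc5. Of 66 probes on the list for abscisic acid signalling, 26 were positive and 19 negative in Apo and 17 and 19 in IR64, with OsPP2C45 as the only member. This list takes any gene named PP2C, a family of which only some members are linked to the hormone. Of 90 probes for cell cycle, DNA and chromatin, 17 were positive and 25 negative in Apo and 15 and 13 in IR64, with 2 positive and 2 negative members, and the 89 cell wall probes, 19 positive and 23 negative in Apo and 14 and 15 in IR64, held no member. These lists were chosen with results of the data known, and their counts are read against the shares over all probes above.

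Other probes of the same genes did not enter the rule and offered a second reading of the same RNA. The 20 positive genes with another probe had 23 such probes, and 20 negative genes had 21. None met the whole rule. In Apo, 8 of the 23 were called by limma on the same positive side, 7 on the opposite side and 8 not at all. Of the 21 probes of negative genes, 7 were called on the same side, 1 on the opposite side and 13 not at all. Over all probes 24.5% were called positive in Apo and 25.6% negative, and these counts are read against those shares. Their median Apo means were 0.0202 and -0.0357, against 0.435 and -0.431 for the member probes of each side.

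**Figure D4:**
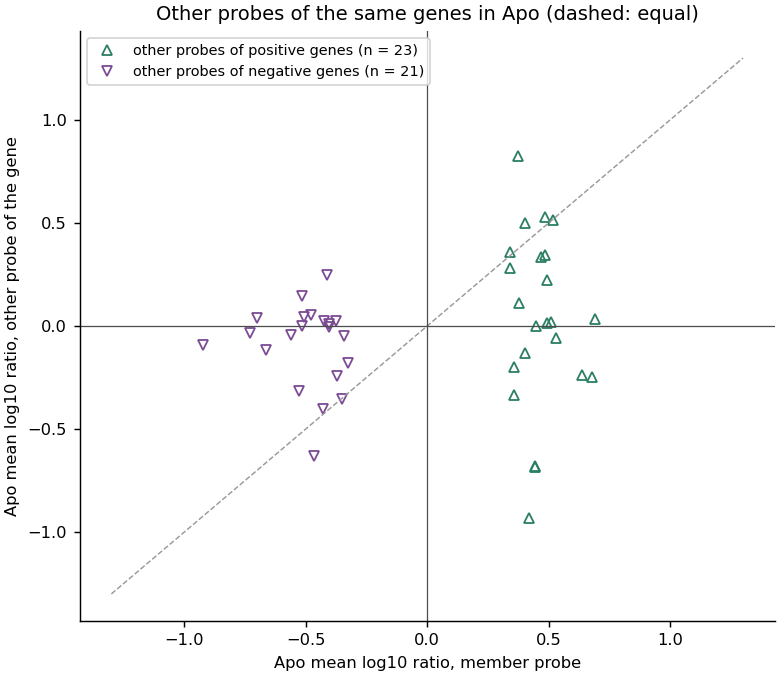
Apo mean log10 ratio of the member probe (horizontal) against that of each other probe of the same gene (vertical), for 23 other probes of positive genes and 21 of negative genes; the dashed line marks equal values. Few points lie near the dashed line, and other probes of positive genes range from -0.932 to 0.822.

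Among named genes, the further probes of NAC5, SNAC2, PPT2, MT2C, Roc2 and UAM3 were called on the member probe's side in Apo by limma. Those of Roc2 and UAM3 averaged -0.177 ± 0.0236 and -0.118 ± 0.0572 in Apo. In IR64 they averaged -0.0770 ± 0.0826 and -0.0988 ± 0.0389. A further NAC5 probe averaged 0.357 ± 0.137 in Apo and 0.232 ± 0.127 in IR64, and a further SNAC2 probe 0.336 ± 0.0791 in Apo and 0.109 ± 0.260 in IR64, both called in Apo by limma, and the NAC5 probe in IR64 too (limma adjusted p = 0.0287). The further PPT2 probe averaged -0.356 ± 0.0478 in Apo and -0.166 ± 0.0945 in IR64, and it was called in IR64 as well (limma adjusted p = 0.0209). The further MT2C probe averaged -0.315 ± 0.0287 in Apo and 0.0435 ± 0.0798 in IR64, with a limma adjusted p = 0.0357 for the difference. The member probe of MT2C and this one thus gave the same direction, with a mean near 0 in IR64, although the member probe itself left the set without IR64 replicate 1.

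For several other genes the probes disagreed. The further probe of ETR3 averaged -0.0357 ± 0.0387 in Apo and -0.0210 ± 0.130 in IR64, that of HOX33 -0.00595 ± 0.0139 in Apo and -0.00972 ± 0.0329 in IR64, and that of PT8 0.0414 ± 0.0451 in Apo and -0.0339 ± 0.0854 in IR64. RAD23 had further probes at -0.201 ± 0.0353 and -0.335 ± 0.161 in Apo, opposite to its member probe, and at 0.0646 ± 0.0286 and -0.0756 ± 0.00304 in IR64. The first of these was called for the difference on the negative side (limma adjusted p = 0.0400). A further probe of the negative member LOC4324843 was called as well, on the same side as its member probe. It averaged -0.632 ± 0.0557 in Apo and -0.154 ± 0.0899 in IR64 (limma adjusted p = 0.0269). The MT2C, RAD23 and LOC4324843 probes were the only 3 calls for the difference among the other probes. With the replicate number as a block 4 were called, these 3 and the further probe of CIPK7 (limma adjusted p = 0.0451). Without IR64 replicate 1 the number of calls was 17 of 44, in a fit that called 13.9% of all probes positive and 19.7% negative. The CIPK7 probe averaged -0.0507 ± 0.0275 in Apo and 0.206 ± 0.0599 in IR64, where it was called (limma adjusted p = 0.00346), unlike the member probe.

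Values just inside and outside the limits show how narrow the choice is. At the Apo limit, RAD23 entered with a lowest Apo ratio of 0.305 and bip128 with 0.322, while TULP9 and DRB7 stayed out with 0.289 and 0.285. On the negative side CYCD3-1 and OsMGT1 entered with an Apo ratio nearest 0 of -0.301 and -0.305, while Pi21 and OsMCM6 stayed out at -0.299 and -0.298. At the IR64 limit, LAC19 and SGR entered with means of 0.0985 and -0.0887, while RSH3 and NYC1 stayed out with 0.101 and -0.104. Roc5 and PT8 entered with -0.0996 and -0.0983, while OPR7 and BC1 stayed out with -0.107 and -0.112.

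The mirror rule, with the genotypes exchanged, found fewer genes, 36 probes with positive IR64 ratios (0.202%) and 19 with negative ones (0.107%). There the Apo arrays lay nearer to each other: all 3 Apo ratios were within 0.3 of 0 for 35 of 36 and 17 of 19 probes, against 67 of 92 and 86 of 115 for the IR64 ratios of the members. The sizes of these sets follow from the same arrays and thresholds, and their difference was not tested. The mirror rule also needs IR64 replicate 1, which correlated more with the Apo arrays than with the other IR64 arrays, to lie beyond 0.3. It was not run without that array, so the 2 rules cannot be compared apart from the doubt about it. In the order of genes along the chromosomes, 6 pairs of members lay within 5 genes of each other and 4 pairs were direct neighbours. FNR with LOC9272009 and LOC4351050 with LOC4351049 were both negative, and LOC4342043 with LOC4342042 both positive. LOC4337229 was positive by its member probe beside the negative LOC4337228. Its further probes were negative, at -0.683 ± 0.337 and -0.679 ± 0.171 in Apo, and -0.602 ± 0.00514 and -0.717 ± 0.0967 in IR64. How often such pairs occur among other genes was not counted.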

How the data were processed

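The deposited values are log10 ratios within each array, the base being taken from the software that the submitters' processing notes name, Agilent Feature Extraction 8.1. The sources used here do not state the sign, the background correction or the dye normalization. The table held 22575 spots, and the platform annotation gave 1 gene for 17839, several for 21 and none for 4715. The genes of all 17839 probes were found in the gene table of assembly ASM3414082v1, used for names and gene order only; 2411 probes had a gene name. Ratios were used as deposited. The members and lists were chosen with earlier results of these data known.

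For the difference, 1 mean per genotype was fitted to the 6 arrays with limma 3.58.1 (R 4.3.3, eBayes) over 17727 annotated probes, leaving out 133 at 0 on all arrays, with Benjamini-Hochberg adjustment at 0.05. The scripts were tested on simulated data. Across probes, arrays with the same number in both genotypes deviated together from the means, with correlations of 0.322, 0.261 and 0.340 for numbers 1, 2 and 3. The numbers were taken to pair the arrays, and blocked values are given where they change a count by over 1.5 times. The naming rule took, on each side, the 12 named members whose Apo ratio nearest 0 was largest in size, families holding several named members, up to 6 named genes with further probes, and the named genes nearest each limit; the other named members were added after their values were seen, so that all but 1 of the 41 appear. That 1, a negative member the rule takes, is not reported here. The name lists were narrowed after a check of what their prefixes matched, leaving out BRI1-interacting proteins among others. No promoter or protein sequences were used. Figures were drawn with matplotlib 3.10.9 in Python 3.11.15.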

Additional observations from a re-analysis of the deposited data

Results flagged for a closer look

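The drought ratio differed between Apo and IR64 past the threshold of limma's fit for 28 positive and 36 negative members. Over all probes 0.773% were called positive and 1.25% negative. The choice of members used this contrast, so these calls are no independent evidence. Leaving out any single array other than IR64 replicate 1 left at most 6 members called, all negative. Among named positive members the difference, Apo minus IR64, was 0.490 for SGR, 0.488 for TPKB, 0.378 for HAK12 and 0.438 for OsPP2C45. Among named negative members it was -0.654 for ETR3, -0.543 for URH2, -0.413 for HOX33, -0.427 for JAZ8 and -0.332 for OsMGT1. TPKB is listed at 0 on all IR64 arrays. SGR left the set without IR64 replicate 1, where its IR64 mean was -0.175. The further probes of ETR3 and HOX33 differed by -0.0147 and 0.00377.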

How the results depend on the processing

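The size of the sets depends on the limits and on the IR64 arrays used. With IR64 limits of 0.05 and 0.2 there were 41 and 252 positive and 57 and 326 negative members, with Apo limits of 0.2 and 0.5 there were 248 and 11 positive and 342 and 20 negative ones, and with every IR64 ratio within 0.1 there were 5 and 16. Leaving out 1 array at a time gave 62 to 195 positive and 82 to 219 negative members, the highest counts without IR64 replicate 1; without Apo replicate 3 there were 173 negative ones. With IR64 replicate 1 alone within 0.1, chosen after seeing the data, 35 positive and 52 negative probes met the rule. Scaling the arrays alike gave 85 and 90 members, of which 75 and 85 were shared with the sets above, and subtracting the shared deviation of each replicate number (the replicate block) gave 87 and 133, of which 63 and 90 were shared.

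Calls for the difference over all probes, 137 positive and 221 negative, became 0 to 2461 and 0 to 3498 when 1 array was left out, and those among the members 0 to 88 and 0 to 113. The highest counts came without IR64 replicate 1, and every other array left at most 2 positive and 10 negative calls. With the replicate block there were 311 positive and 640 negative calls, among them 33 positive and 63 negative members. Scaling gave 91 positive calls, and keeping probes at 0 on all arrays gave 16 called positive members. The cause of these shifts was not tested. The Apo means of NTL3 and NAC5 moved by more than their SD under scaling. For the other named members a move within the SD says little about stability, since leaving out 1 of 3 arrays cannot shift a mean by a whole SD, and neither centring nor the replicate block changes the means. The number of arrays limits the precision.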
